A study of Mus musculus with 24 samples.

Results

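The genes described here encode the nuclear subunits of the mitochondrial respiratory chain and of the ATP synthase, together with a few factors that carry the same names and help to assemble them. They were taken by name: every symbol that starts with Nduf, Uqcr, Atp5, Cox4, Cox5, Cox6, Cox7 or Cox8, and the 4 Sdh genes, with names ending in -ps left out. Of the 92 such symbols, 81 had an averaged level of at least 5 CPM, that is, reads of the gene scaled to the size of its library, in at least 1 group, among 23420 genes in the tables. Membership was thus chosen by name and by the averaged CPM level in these same samples, so the levels are given as a description. Complex I had 7 core and 28 accessory subunits among them, complex II 4 subunits, complex III 8, complex IV 11 and complex V 15. A further 8 were not subunits, namely the complex I assembly factors Ndufaf1, Ndufaf2, Ndufaf3, Ndufaf4, Ndufaf5 and Ndufaf7, the respiratory supercomplex factor Cox7a2l, and Atp5sl.

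The libraries came from bone marrow-derived macrophages of male C57BL/6 mice aged 3 months, grown for 6 days with M-CSF, the growth factor that turns marrow cells into macrophages. Poly-A RNA was sequenced in 24 samples, in 12 groups of 2. The antagonist experiment held macrophages given IL-4, IL-4 with GW9662, GW9662, or the DMSO and ethanol vehicle, each for 24 h. IL-4 is the cytokine that drives alternative activation of macrophages, and GW9662 is an antagonist of the nuclear receptor PPARγ whose dose the labels do not give. The memory experiment held PpargKO and wild-type (WT) macrophages in 4 conditions each: left without IL-4; given IL-4 for 3 h; given IL-4 for 24 h, then washed free of it and held in differentiation medium for a further 24 h; and treated that way and then given IL-4 for 3 h. The labels state the IL-4 concentration as 20 ng/ul, and they name no Cre driver for the knockout.

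Electrons from NADH enter the chain at complex I and those from succinate at complex II, then pass through complex III and cytochrome c to oxygen at complex IV. Complexes I, III and IV pump protons across the inner mitochondrial membrane, and the ATP synthase, also called complex V, uses the returning protons to make ATP. Oxidative metabolism is a known feature of macrophages activated by IL-4. The 13 subunits encoded by mitochondrial DNA are not analysed here.

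Each deposited value was the mean of 2 libraries, and it was taken apart into their whole read counts. Within a group the library with more reads is named the deeper and its partner the shallower; which replicate each one was is unknown. Of 972 member values, 966 could be taken apart. The other 6 belonged to Atp5a1 and Atp5b in the groups given IL-4 for 24 h, IL-4 with GW9662, and IL-4 for 3 h in WT cells, whose mean entered the test as 1 observation of weight 2. Reads in genes numbered 15963536 to 27640996 in the antagonist libraries and 5444482 to 16681507 in the memory libraries, so that 3 reads equalled 0.105 to 0.181 CPM and 0.183 to 0.526 CPM. Changes were tested with limma on log2(CPM + 1), with Benjamini-Hochberg adjustment over all genes tested, and a gene was called at an adjusted p under 0.05. Printed differences are limma log2 differences ± SE from 2 libraries a group, and medians over genes are log2 ratios of group means with 1 CPM added. In bulk RNA, fewer cells of a type and less RNA per cell cannot be told apart.

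The labels were checked against the data before any comparison. The macrophage markers Csf1r, Emr1 and Cd68 averaged at least 3718, 1404 and 1262 CPM in every group. Markers of T cells, B cells, NK cells, mast cells, red cells and epithelium each summed to under 1 CPM in every group, and the 3 neutrophil markers in the tables together made 52.3 to 73.6 CPM of the antagonist groups and 2.35 to 10.5 CPM of the memory groups. In 1 library, the deeper library of WT macrophages restimulated after washout, the fibroblast gene Col1a1 reached 492 CPM, with 114 CPM of Col3a1 and 66.0 CPM of Pdgfrb. Its shallower partner had 16.9, 3.40 and 2.19 CPM of the same genes, and no other library exceeded 4.21 CPM of Col1a1. The Pparg count over the whole gene lay between 19.9 and 45.5 CPM in the libraries labelled PpargKO, against 19 to 34.8 CPM in WT libraries of that experiment. A count over the whole gene does not check a deletion of part of it, and the libraries are called KO-labelled below. The macrophage lysozyme gene Lyz2 had 11.8 to 44.2 CPM in the KO-labelled libraries, against group means of 21966 to 30727 CPM in WT macrophages.

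The 24 libraries fell into 2 kinds by the counts of genes whose sequence is shared with other genes. How reads that fit several genes were counted is not given, and its part in the kinds was not tested. Kinds were told apart with genes outside the chain that share at least 50% of their 50-base words with another gene. In 10 libraries such genes were high, and in 14 they were low. All 8 KO-labelled libraries were of the low kind, and 7 of the 8 WT libraries of the same experiment were of the high kind, so genotype and kind cannot be told apart there except through 1 WT library. The IL-4, IL-4 with GW9662, vehicle and washed-out WT groups held 1 library of each kind, and both GW9662 libraries were of the low kind. Over the 4 groups with both kinds, 11 members had a median high-to-low ratio of at least 1.5 and are called sensitive to counting below. These were Atp5g2, Cox7c, Atp5g1, Atp5l, Ndufb4, Ndufab1, Cox5b, Uqcrb, Atp5h, Ndufa12 and Cox7a2l. Of the 14 members that shared at least 20% of their words with another gene, 9 were among them, against 2 of the 66 members that shared less.

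The c-subunit genes of the ATP synthase are shown because they include the most sensitive member and one that is not sensitive. The c subunit forms the rotor ring in the membrane, and Atp5g1, Atp5g2 and Atp5g3 encode the same mature protein behind different import signals. The last 60 coding bases before the stop codon are printed to show how the members differ, with capitals at the 18 positions where the 3 genes are not identical.
Atp5g1, GRCm38 chr11:96068852-96075670, minus strand: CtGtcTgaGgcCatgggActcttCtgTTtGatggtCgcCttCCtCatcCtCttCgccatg
Atp5g2, GRCm38 chr15:102662864-102672352, minus strand: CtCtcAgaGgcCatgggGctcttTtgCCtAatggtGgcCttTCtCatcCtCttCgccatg
Atp5g3, GRCm38 chr2:73908447-73911326, minus strand: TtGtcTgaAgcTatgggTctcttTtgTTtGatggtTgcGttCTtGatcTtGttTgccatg
Over their last 225 coding bases, Atp5g1 and Atp5g2 were identical at 191 positions (84.9%), Atp5g1 and Atp5g3 at 180, and Atp5g2 and Atp5g3 at 177 (78.7%). All 176 of the 50-base words in this part of Atp5g2 were also present in Gm10175, a processed transcript at chr7:23946646-23947290. Of the same words of Atp5g1, 152 (86.4%) were present in the pseudogene Gm10039. The printed 60 bases of Atp5g3 occurred in no other annotated gene.

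The levels of the c-subunit genes differed in how far the library kinds were apart. Atp5g2 had 48.0 CPM in the vehicle library of the high kind and 0.105 CPM, which is 3 reads, in the vehicle library of the low kind. Atp5g1 had 18.7 and 2.79 CPM in the same libraries. Atp5g3, which is not sensitive to counting, had 137 and 145 CPM there. For the 11 sensitive members the median log2 ratio of the high to the low kind was 1.74, against 0.03 for the other 70. Members were called sensitive by this same ratio in these libraries, so that gap follows from the choice. Whether shared sequence accounts for the difference between the kinds was not tested.

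**Figure D1:**
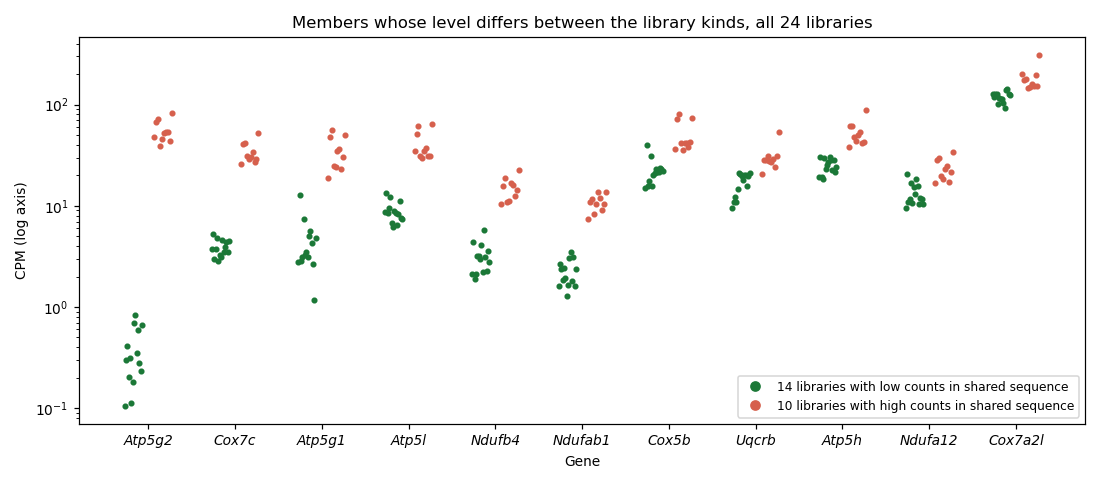
Level in CPM (log axis) of the 11 members that differ between the library kinds, in each of the 24 libraries. Points of each gene stand left for the 14 libraries with low counts in shared sequence and right for the 10 with high counts. Atp5g2 separates most, with 0.105 CPM in the low and 48.0 CPM in the high vehicle library.

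Per kilobase of transcript, the members spanned a wide range, and the order of levels was led by complexes IV and V. Cox4i1, a nuclear subunit of complex IV, was highest, at 919 CPM per kb in IL-4-treated and 523 CPM per kb in vehicle macrophages. Cox6a1, of the same complex, averaged 578 CPM per kb with IL-4 and 290 CPM per kb in vehicle. Atp5e and Atp5b, the ε and catalytic β subunits of the ATP synthase, followed in vehicle, at 276 and 272 CPM per kb, and stood at 627 and 767 CPM per kb with IL-4. The lowest members in vehicle were the assembly factor Ndufaf4, at 1.32 CPM per kb, and the mitochondrial acyl carrier protein gene Ndufab1, at 1.29 CPM per kb, which is sensitive to counting.

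Subunits that exist in alternative forms were represented almost entirely by the ubiquitous form. Cox4i1, Cox6a1, Cox6b1, Cox7a2, Cox8a and Ndufa4 were members, whereas the highest group means of Cox4i2, Cox6b2, Cox6a2, Cox7a1 and Ndufa4l2 were 0.680, 1.72, 2.17, 3.92 and 1.03 CPM. Just outside the level of 5 CPM lay Atp5s, at 4.83 CPM in its highest group, and the assembly factor Ndufaf6, at 4.38 CPM. Just inside it lay Ndufaf2, at 9.64 CPM, and Ndufaf5, at 9.95 CPM. Of the 81 members, 74 reached 5 CPM in every group. The others did so in part of the groups only.

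In macrophages given IL-4 for 24 h, genes of all 5 complexes were higher than in vehicle, and no member was called lower. Of the 81 members, all of which passed the filter on low values, 45 were higher, where 9.79% of the 11077 genes tested were called higher and 8.34% lower, 18.1% in all. Of the 81, 76 had a log2 ratio above 0. The members' median log2 ratio was 0.67, beside -0.01 for all genes tested and 0.12 for other genes with a transcript under 1 kb. The members are short, with a median transcript of 751.5 bases against 2650 over all genes tested. Calls were spread over 4 of 7 core and 15 of 28 accessory subunits of complex I, 4 of 4 of complex II, 6 of 8 of complex III, 7 of 11 of complex IV and 9 of 15 of the ATP synthase. The corresponding medians were 0.78, 0.64, 0.86, 0.88, 0.81 and 1.01. None of the 8 members that are not subunits was called, and their median was 0.11.

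The 3 largest called differences were in the ATP synthase. Atp5g3 had 342 and 479 CPM in the deeper and shallower IL-4 libraries, against 145 and 137 CPM in vehicle. Both IL-4 libraries stood above both vehicle libraries, and the difference was 1.52 ± 0.19 (limma adjusted p = 0.00169). Atp5b averaged 1470.1 CPM with IL-4, where its libraries could not be taken apart, against 525 and 516 CPM in vehicle (limma adjusted p = 0.0026). Atp5o, the stalk subunit that holds the catalytic head in place, had 128 and 141 CPM with IL-4, against 50.8 and 55.1 CPM in vehicle. It rose by 1.33 ± 0.24 (limma adjusted p = 0.00835), without overlap between the groups. The α and γ subunit genes Atp5a1 and Atp5c1 rose by 1.23 ± 0.15 and 0.87 ± 0.18, with Atp5a1 also taken as a mean under IL-4 (limma adjusted p = 0.00467 and 0.0158).

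The electron-transport complexes moved in the same direction. Uqcrc1, a core protein of complex III, had 405 and 646 CPM in the IL-4 libraries, against 214 and 217 CPM in vehicle, and rose by 1.24 ± 0.19 (limma adjusted p = 0.00378). The shallower IL-4 library was the higher of the pair, as it was for 42 of the 68 members whose reads could be taken apart and which are not sensitive to counting. The gene of the partner core protein, Uqcrc2, averaged 139 CPM with IL-4 and 96.4 CPM in vehicle, and rose by 0.52 ± 0.14 (limma adjusted p = 0.039). The Rieske protein gene Uqcrfs1 had 102 and 82.1 CPM with IL-4, against 63.1 and 62.5 CPM in vehicle, and missed the threshold (0.54 ± 0.17, limma adjusted p = 0.0722).

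Complex II, the succinate dehydrogenase that also serves the citrate cycle, was called in full. The membrane anchor gene Sdhc had 225 and 249 CPM with IL-4, against 112 and 114 CPM in vehicle, a difference of 1.06 ± 0.14 (limma adjusted p = 0.00192). The flavoprotein gene Sdha had 356 and 316 CPM in IL-4 libraries, against 233 and 209.5 CPM in vehicle, and rose least of the 4, by 0.60 ± 0.15 (limma adjusted p = 0.0304). The other anchor gene Sdhd and the iron-sulphur subunit gene Sdhb lay between them, at 0.79 ± 0.15 and 0.89 ± 0.18 (limma adjusted p = 0.00993 and 0.0135).

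In complex IV, Cox5a had 156 and 188 CPM with IL-4, against 95.7 and 94.8 CPM in vehicle, and rose by 0.84 ± 0.16 (limma adjusted p = 0.00959). Cox8a averaged 221 CPM with IL-4 and 106 CPM in vehicle, and Cox4i1 rose by 0.78 ± 0.19 (limma adjusted p = 0.0221 and 0.0256). Ndufa4, named for complex I but assigned to complex IV, had 107 and 76.3 CPM in IL-4 libraries, against 53.1 and 66.4 CPM in vehicle, and missed the threshold (limma adjusted p = 0.136). The complex I core subunit gene Ndufv1, which binds NADH, had 103 and 142 CPM with IL-4, against 66.6 and 64.6 CPM in vehicle (a rise of 0.87 ± 0.17, limma adjusted p = 0.0115). Ndufs1 and Ndufs3, also core subunits, missed it, at adjusted p of 0.336 and 0.413 by limma. Ndufa13, an accessory subunit named here after its values were seen, had 138 and 144 CPM with IL-4, against 64.3 and 71.1 CPM in vehicle (limma adjusted p = 0.00357). The IL-4 libraries of Ndufs1 were far apart, at 61.3 and 32.5 CPM, against 33.8 and 31.7 CPM in vehicle.

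**Figure D2:**
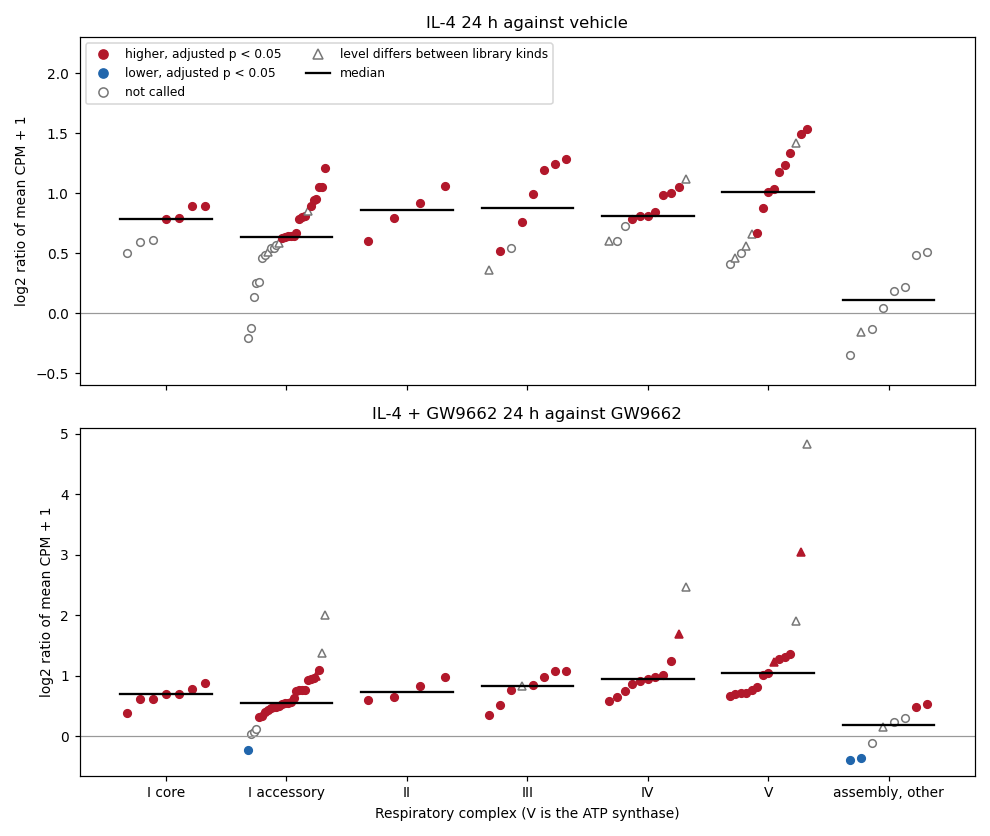
Log2 ratio of mean CPM + 1 for each of the 81 members, by complex, for IL-4 against vehicle (upper panel) and IL-4 with GW9662 against GW9662 (lower panel), both at 24 h. Red points were called higher, blue lower and open points neither; triangles are the members sensitive to counting, and bars are medians. The ATP synthase has the highest median in both panels (1.01 and 1.04), and genes that are not subunits the lowest (0.11 and 0.19).

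The same IL-4 contrast in the presence of GW9662 used other libraries, and all 45 members higher in the first contrast were higher in it. Here 65 members were higher and 3 lower, where 26.3% and 25.1% of 11067 genes were called higher and lower, 51.4% in all. The 45 shared members were 100% of the first list and 69.2% of the second. Over all 10975 genes tested in both contrasts, 1082 were higher in both, likewise 100% of the first list, and 37.4% of the second. The members' median was 0.75, beside 0.02 for all genes tested. Higher calls covered 7 of 7 core and 22 of 28 accessory subunits of complex I, 4 of 4 of complex II, 7 of 8 of complex III, 10 of 11 of complex IV, 13 of 15 of the ATP synthase and 2 of 8 of the genes that are not subunits.

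Atp5g3 had 349 and 399 CPM with IL-4 and GW9662, against 156 and 149.9 CPM with GW9662, and rose by 1.28 ± 0.08 (limma adjusted p = 1.23e-05). Uqcrc1 had 461 and 471 CPM, against 214 and 225 CPM with GW9662, and Sdhc had 219 and 232 CPM, against 117 and 112 CPM. The groups did not overlap for either gene, and the differences were 1.08 ± 0.08 and 0.98 ± 0.06 (limma adjusted p = 2.73e-05 and 9.58e-06). Atp5o rose by 1.35 ± 0.11, and Atp5b, its IL-4 with GW9662 value a mean, by 1.31 ± 0.07 (limma adjusted p = 3.13e-05 and 4.04e-05). Ndufs1 and Ndufs3, which had missed the threshold without GW9662, rose here by 0.63 ± 0.12 and 0.85 ± 0.19 (limma adjusted p = 0.00345 and 0.00761).

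The 3 members that were lower with IL-4 and GW9662 than with GW9662 were Ndufa6, an accessory subunit of complex I, Ndufaf7, a methyltransferase that acts in complex I assembly, and Atp5sl. Ndufa6 had 59.4 and 62.0 CPM, against 69.2 and 73.1 CPM with GW9662, and fell slightly (-0.23 ± 0.07, limma adjusted p = 0.032). Atp5sl had 24.2 and 24.2 CPM, against 29.8 and 34.2 CPM (-0.39 ± 0.10, limma adjusted p = 0.0151), and Ndufaf7 differed by -0.36 ± 0.12 (limma adjusted p = 0.0408). None of these 3 calls was kept without group weights or with any 1 of the 4 libraries left out. Without GW9662, all 3 missed the threshold; Ndufa6 had 65.9 and 49.2 CPM in IL-4 libraries, against 66.2 and 66.6 CPM in vehicle.

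**Figure D3:**
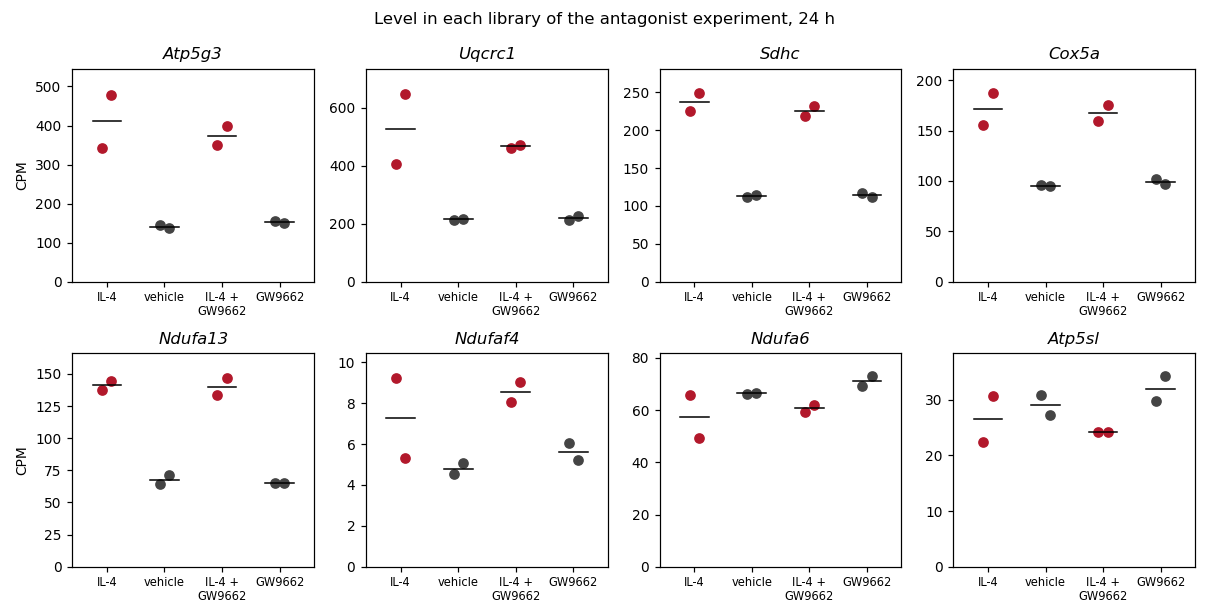
Level in CPM of 8 members in each library of the antagonist experiment at 24 h, with bars at the group means; red points are libraries given IL-4. Atp5g3, Uqcrc1, Sdhc, Cox5a and Ndufa13 stand higher in all 4 libraries given IL-4 than in all 4 others, whereas Ndufa6 and Atp5sl do not. Ndufa13, an accessory subunit of complex I, was chosen for the plot after its values were seen.

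Members sensitive to counting were compared between libraries of 1 kind. In the high kind, Atp5g1 was 1.31 higher on the log2 scale in the IL-4 library than in the vehicle library, and in the low kind 1.86. Cox5b, a zinc-binding subunit of complex IV, was 1.00 and 1.36 higher. Of the 11 sensitive members, 10 were higher with IL-4 within the high kind and 10 within the low kind, with Cox7a2l the exception in both, at -0.19 and -0.10. Within the low kind, 10 of the 11 were also higher with IL-4 and GW9662 than with GW9662. These comparisons rest on 1 or 2 libraries a group and carry no test. In the test itself, 0 of the 11 were called for IL-4 against vehicle by limma, with 0 at an unadjusted p under 0.05, and 4 were called for IL-4 with GW9662 against GW9662, Atp5g1 and Cox5b among them (2.47 ± 0.82 and 1.54 ± 0.41, limma adjusted p = 0.0376 and 0.0164). In that contrast 1 of the IL-4 with GW9662 libraries is of the high kind and no GW9662 library is.

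Without the deeper vehicle library, 28 members were called higher for IL-4 against vehicle in place of 45, beside 7.24% of all genes, and without the shallower GW9662 library 43 were called higher for IL-4 with GW9662 against GW9662 in place of 65, beside 12.2%. The IL-4 group had the lowest weight of the antagonist groups in the fit, 0.211, where the others had 1.23 to 2.66. Short transcripts stood higher in its shallower than in its deeper library, by a median log2 ratio of 0.11 for other genes under 0.75 kb and 0.26 for members of that length; the part of this difference in the result was not tested.

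No member was called between GW9662 and vehicle, nor between IL-4 with GW9662 and IL-4. By limma, 0 of 81 were called in each comparison, with 0% of 10875 and 0% of 10804 genes called, and 1 and 0 members at an unadjusted p under 0.05; limma-voom also called 0 members in each. Median log2 ratios were 0.00 for GW9662 against vehicle and -0.06 for IL-4 with GW9662 against IL-4. Between IL-4 with GW9662 and IL-4 the members ranged from -0.25 to 0.28; Atp5g3 differed by -0.12 ± 0.19 and Uqcrc1 by -0.13 ± 0.19. A missed threshold does not show that these groups are alike. The test of whether GW9662 changed the IL-4 difference called 0 members by limma and by limma-voom, with 0 at an unadjusted p under 0.05 and 0% of 11169 genes called. Without the deeper IL-4 library, 5 members were called higher and 14 lower for IL-4 with GW9662 against IL-4, beside 11.2% and 6.37% of all genes, in a fit where the remaining library is assumed to vary like the other groups.

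In the memory experiment, macrophages given IL-4 for 3 h had higher levels of the assembly factor gene Ndufaf4 and of some subunits of complexes I, III, IV and V, against cells of the same genotype without IL-4. In KO-labelled macrophages, 16 of the 80 members tested were higher and 1 lower, a share near the 21.6% of 11203 genes called higher; 22.8% were called lower, 44.3% in all. The members' median was 0.08, and Atp5g2 was under the filter. In WT macrophages, 30 of 81 members were higher and 1 lower, where 24.7% and 24.9% of 11340 genes were called higher and lower, 49.6% in all. Their median was 0.21, beside -0.01 for all genes tested and 0.09 for other genes with a transcript under 1 kb. Higher in both genotypes were 13 members, 81.3% of the KO-labelled list and 43.3% of the WT list. Over all 11054 genes tested in both, 1990 were higher in both, of 2397 higher in KO-labelled cells and 2774 in WT cells, 71.7% of the WT list. These were Ndufaf4, Ndufaf1, Ndufb2, Ndufb6, Ndufb9, Uqcrc1, Uqcrc2, Uqcrfs1, Uqcrq, Cox5a, Atp5a1, Atp5b and Atp5g3, and Atp5sl was lower in both. The difference between the genotypes' responses was called for 0 members by limma and by limma-voom, with 0 higher and 5 lower in KO-labelled cells at an unadjusted p under 0.05, where 0.0087% and 0.0174% of 11489 genes were called higher and lower, 0.0261% in all.

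Ndufaf4, an assembly factor of complex I, had the largest 3 h difference among the called members. It had 22.1 and 24.7 CPM in KO-labelled macrophages after 3 h of IL-4, against 9.58 and 8.98 CPM without it, and 22.6 and 22.1 CPM in WT macrophages after 3 h, against 9.29 and 8.06 CPM without it. All 4 libraries with IL-4 stood above all 4 without. The differences were 1.25 ± 0.13 in KO-labelled and 1.27 ± 0.13 in WT cells (limma adjusted p = 4.71e-07 and 4.06e-07). After 24 h in the antagonist experiment, a separate set of libraries, Ndufaf4 had 9.24 and 5.31 CPM with IL-4, against 4.53 and 5.06 CPM in vehicle, and missed the threshold (limma adjusted p = 0.324). With GW9662 it had 8.07 and 9.05 CPM with IL-4, against 6.03 and 5.24 CPM without, and rose by 0.53 ± 0.13 (limma adjusted p = 0.00984). Times in separate experiments were not compared by a test.

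The 250 bases before the start of Ndufaf4 are printed because this gene had the largest called difference at 3 h, beside those of Atp5g3, which had the largest difference among members called for IL-4 against vehicle at 24 h. Capitals mark motifs found by their letters, on either strand.
Ndufaf4, RefSeq GRCm38.p6 chr4:24897833-24898082, plus strand: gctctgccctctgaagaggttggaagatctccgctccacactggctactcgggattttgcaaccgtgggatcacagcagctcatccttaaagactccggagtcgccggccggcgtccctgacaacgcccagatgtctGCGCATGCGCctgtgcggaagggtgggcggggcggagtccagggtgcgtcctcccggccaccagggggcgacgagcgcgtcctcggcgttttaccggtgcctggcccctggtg
Atp5g3, RefSeq GRCm38.p6 chr2:73911327-73911576, minus strand: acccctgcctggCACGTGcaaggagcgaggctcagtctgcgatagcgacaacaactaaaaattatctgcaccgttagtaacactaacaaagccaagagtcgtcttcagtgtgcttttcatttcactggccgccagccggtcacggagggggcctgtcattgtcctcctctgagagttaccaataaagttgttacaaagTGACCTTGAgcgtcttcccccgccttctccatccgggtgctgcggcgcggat
Ndufaf4 holds the palindrome bound by NRF1, a regulator of respiratory genes, made of GCGCA and its reverse complement TGCGC without a gap, from position -113 relative to the start. Atp5g3 holds TGACCTTGA, the reverse complement of the estrogen-related receptor letters TCAAGGTCA, from position -52, and the E-box CACGTG from position -238. The same 250 bases of Atp5b, Uqcrc1, Cox5a and Ndufa6, also looked at, held none of the motifs searched. Of the 81 members, 68 had 73 entries in the RefSeq promoter table. The NRF1 letters were present in 5 of the 73 (6.85%), those of Atp5g2, Atp5k, Cox6a1, Ndufa11 and Ndufaf4, against 0.782% of all 32851 promoters. The ETS letters CCGGAAG were present in 13 (17.8%), against 6.91%, the E-box in 6 (8.22%), against 6.02%, and the estrogen-related receptor letters in 1 (1.37%), against 0.387%. The NRF1 and E-box letters read the same on both strands, and no motif searched lies within another. These are descriptions of letters, without a test.

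The second largest 3 h call in KO-labelled cells was Ndufab1, which is sensitive to counting, with 3.05 and 3.51 CPM after 3 h, against 1.28 and 1.63 CPM without IL-4 (0.80 ± 0.29, limma adjusted p = 0.0339). All 4 of these libraries are of the low kind, and the call was lost with any 1 of them left out (adjusted p from 0.129 to 0.321) and with no group weights. In WT cells its difference, 0.43 ± 0.29, missed the threshold (limma adjusted p = 0.243). Uqcrc1 had 269 and 229 CPM in KO-labelled macrophages after 3 h of IL-4, against 192 and 194 CPM without it, and rose by 0.36 ± 0.08 (limma adjusted p = 0.00169). In WT macrophages it had 246 and 246 CPM after 3 h, against 165 and 179 CPM, and rose by 0.52 ± 0.08 (limma adjusted p = 6.39e-05). In each genotype both libraries with IL-4 stood above both without. Cox5a rose by 0.31 ± 0.08 in KO-labelled and 0.51 ± 0.07 in WT cells, where it had 158 and 145 CPM after 3 h, against 109 and 102 CPM without IL-4 (limma adjusted p = 0.00285 and 2.23e-05). The assembly factor gene Ndufaf3 had 13.7 and 13.7 CPM in KO-labelled cells after 3 h, against 13.2 and 16.8 CPM without IL-4, with overlap. In WT cells it averaged 17.5 CPM, against 11.2 CPM, and rose by 0.60 ± 0.15 (limma adjusted p = 0.00284). Atp5sl fell, by 0.57 in KO-labelled and 0.34 in WT cells on the log2 scale, with SE of 0.12 each (limma adjusted p = 0.000999 and 0.0273).

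Most 3 h calls of members were not made in the fit without group weights. With no group weights, 2 members were called in KO-labelled and 4 in WT macrophages in place of 17 and 31, and Ndufaf4 was called in both. Leaving out the deeper or shallower library without IL-4, or the deeper or shallower library with it, left 5, 3, 4 and 11 calls in KO-labelled cells, and 12, 15, 11 and 9 in WT cells. Ndufaf4 was called in each of these 8 fits. By limma-voom, 12 members were called in KO-labelled and 26 in WT cells. The counts in this paragraph stand without the share of all genes called in the same fits. Fewer member calls can therefore not be told from fewer calls over all genes.

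**Figure D4:**
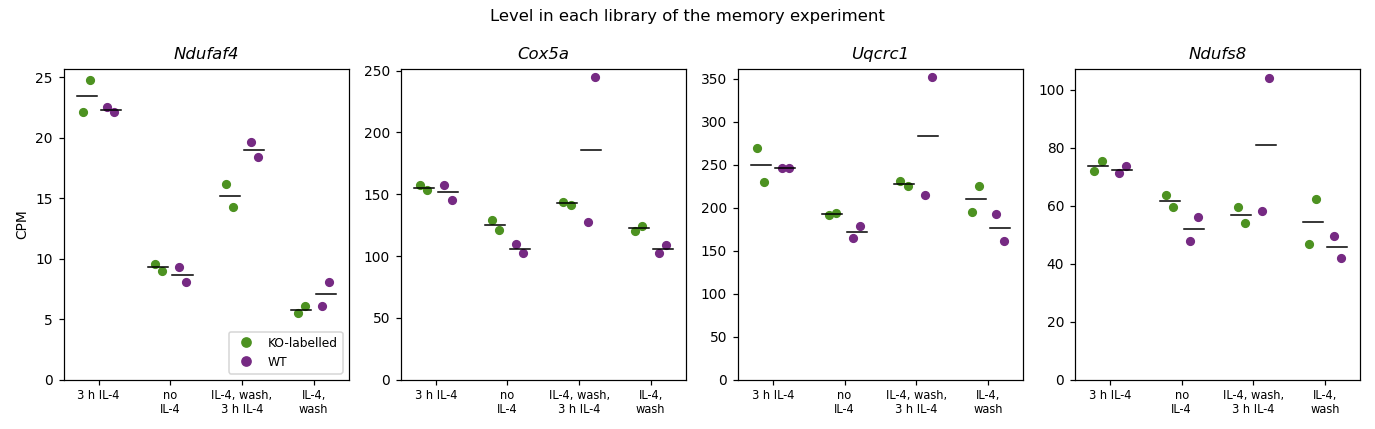
Level in CPM of Ndufaf4, Cox5a, Uqcrc1 and Ndufs8 in each library of the memory experiment, with bars at group means, KO-labelled macrophages in green and WT in purple. Ndufaf4 stands higher in every library taken after 3 h of IL-4 than in every library without it. Cox5a, Uqcrc1 and Ndufs8 have 1 high library in the restimulated WT group; Ndufs8, a core subunit of complex I, was chosen for the plot after its values were seen.

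After 24 h of IL-4, washing and 24 h without it, the members lay near the level of cells never given IL-4. In KO-labelled macrophages 1 of 80 members was higher and 1 lower, where 9.58% and 10.6% of 11225 genes were called higher and lower (20.2% in all), and in WT macrophages 1 of 81 was higher and 2 lower, where 7.29% and 7.05% of 11364 genes were called higher and lower (14.3% in all). Medians were -0.03 in KO-labelled and -0.05 in WT cells. In KO-labelled cells Ndufaf4 was lower, with 5.50 and 6.06 CPM after washout, against 9.58 and 8.98 CPM without pretreatment (-0.60 ± 0.13, limma adjusted p = 0.00356). In WT cells Uqcrfs1 was higher, at 93.2 and 91.8 CPM, against 77.1 and 70.2 CPM (0.33 ± 0.10, limma adjusted p = 0.0405), and Cox6a1 lower, at 139.7 and 126 CPM, against 162 and 165 CPM (-0.30 ± 0.10, limma adjusted p = 0.0496). Cox7c, the other member called lower, is sensitive to counting, and 1 of the 2 washed-out WT libraries is of the low kind. The washout call of Ndufaf4 was lost without either unstimulated KO-labelled library or the deeper washed-out one, at adjusted p of 0.146, 0.0879 and 0.0709 by limma. No call of the washout comparisons but that of Ndufaf4 was kept without group weights, and with the deeper WT washed-out library left out 2 members were higher and 14 lower in WT cells, beside 7.5% and 11% of all genes.

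Restimulation for 3 h after washout moved Ndufaf4 again. In KO-labelled macrophages it had 16.2 and 14.2 CPM, against 5.50 and 6.06 CPM before restimulation, and rose by 1.26 ± 0.14 (limma adjusted p = 1.12e-06). Ndufaf3, Ndufs1, Cox5a and Uqcrc2 also rose there, by 0.18 to 0.50, and no member fell, where 19.4% of 11277 genes were called higher and 16.6% lower, 36% in all. The median of the 80 members was 0.00. With no group weights only Ndufaf4 was called, and the share of all genes called in that fit is not given. Leaving out a library gave fewer calls both of members and of all genes. In WT macrophages Ndufaf4 had 19.6 and 18.4 CPM after restimulation, against 6.12 and 8.06 CPM before; the groups did not overlap, and limma did not call the difference (adjusted p = 0.097). Whether the response to washout or to restimulation differed between the genotypes was tested, and 0 members were called in either test by limma and by limma-voom, with 0% of 11502 and 12067 genes called. At an unadjusted p under 0.05, 4 members were higher in KO-labelled cells in the washout test. They were Cox7c, Ndufab1, Atp5l and Cox5b, all sensitive to counting. In the restimulation test 9 were lower in KO-labelled cells at that level. Without the deeper washed-out WT library these tests called 8 higher and 7 lower, beside 4.31% and 3.13% of all genes, and without the deeper restimulated WT library the restimulation test called 67 lower, beside 19.9%.

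In the WT restimulation contrast limma called 0 of 81 members, with 15 higher and 0 lower at an unadjusted p under 0.05, and limma-voom called 1; of 11953 genes, 2.7% were called higher and 2.26% lower, 4.96% in all. The members' median was 0.59, beside 0.07 for all genes tested and 0.47 for other genes with a transcript under 1 kb. The 2 restimulated WT libraries stood far apart, and the group had a weight of 0.0795 in the fit. Of 70 members not sensitive to counting, 67 were higher in the shallower library, by a median of 0.81 on the log2 scale. Cox4i1 had 601 CPM in it and 306 CPM in the deeper one, against 344 and 298 CPM in the washed-out WT libraries. Other genes differed between the 2 libraries by transcript length, from a median of 0.64 under 0.75 kb to -0.95 over 6 kb, while members under 0.75 kb had a median of 0.93. The deeper library is the one with fibroblast transcripts. The part of either in the members' levels was not tested.

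**Figure D5:**
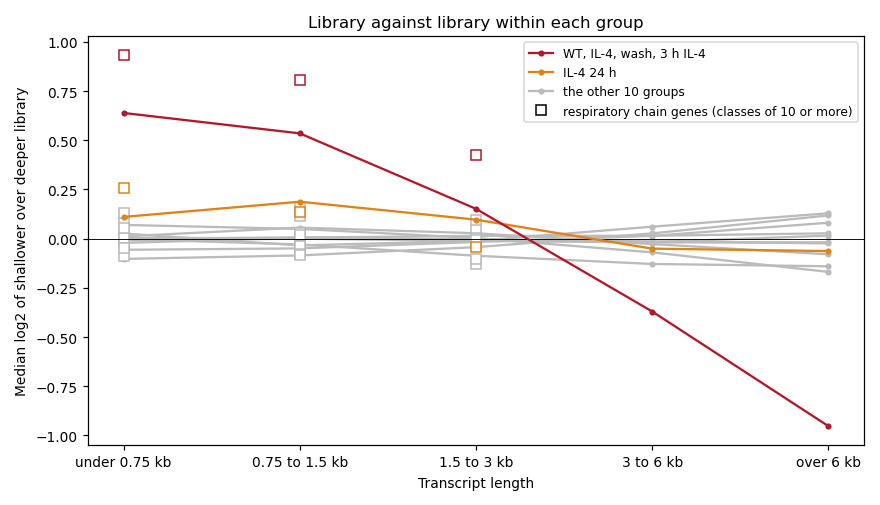
Median log2 ratio of the shallower over the deeper library of each group, for other genes in 5 classes of transcript length (lines) and for members not sensitive to counting in classes with at least 10 of them (squares). The restimulated WT group runs from 0.64 in the shortest to -0.95 in the longest class, with members at 0.93, 0.81 and 0.42, and the IL-4 24 h group from 0.11 to -0.06. Lines of the other 10 groups lie between -0.17 and 0.13.

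Counts in contrasts with this group depended on which of its libraries was used. Without the deeper library, 76 members were higher and 1 lower for restimulated against washed-out WT macrophages, where 30.9% and 29.6% of all genes were called higher and lower in the same fit. Without the shallower 5 were higher and 1 lower, beside 22.3% and 14.1% of all genes, and without the deeper washed-out WT library 9 were higher, beside 7.42%. For the second against the first 3 h of IL-4 in WT cells, 0 members were called by limma and by limma-voom with both libraries, with 0 at an unadjusted p under 0.05, where 0.185% and 0.126% of 11875 genes were called higher and lower, 0.312% in all. Without the deeper library 64 were higher and 1 lower, beside 23.2% and 27.2% of all genes, and without the shallower 0 higher and 11 lower, beside 19.5% and 11.6%. In KO-labelled macrophages, whose libraries stood closer, 1 member was higher and 8 lower in the second than in the first exposure, where 13% and 10.1% of 11185 genes were called higher and lower, 23.1% in all. Ndufaf4 had 16.2 and 14.2 CPM in the second, against 22.1 and 24.7 CPM in the first (-0.59 ± 0.14, limma adjusted p = 0.00458). Ndufb6, an accessory subunit of complex I, had 35.5 and 28.6 CPM, against 41.8 and 42.3 CPM (-0.39 ± 0.13, limma adjusted p = 0.0332). With no group weights 1 of these 9 calls was made, that of Ndufaf4, and the share of all genes called in that fit is not given. Leaving out a library gave fewer calls both of members and of all genes. The call of Ndufaf4 was lost without the shallower library of either group, at limma adjusted p of 0.147 without the restimulated and 0.0947 without the first-exposure one.

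KO-labelled and WT macrophages without IL-4 differed in 30 members, 19 higher and 11 lower in KO-labelled cells, where 7.69% and 10.5% of 11275 genes were called higher and lower, 18.2% in all. This contrast varied with transcript length. Of other genes, 16.4% were called higher under 0.75 kb, with a median of 0.14, and 0.88% over 6 kb, with a median of -0.09. Of 33 members under 0.75 kb not sensitive to counting, 12 were called higher, with a median of 0.24. Of the 11 lower members, 10 are sensitive to counting, and the other was Atp5f1, with 123 and 115 CPM in KO-labelled cells, against 149.7 and 138 CPM in WT (-0.27 ± 0.07, limma adjusted p = 0.0124). Among the 10, Atp5g2 and Cox7c averaged under 5 CPM in every KO-labelled group and met the rule only through other groups. Their place among the lower members therefore follows in part from the choice of members. The rises were small: Ndufa6, with the largest, had 65.0 and 72.4 CPM in KO-labelled cells, against 55.0 and 52.0 CPM in WT (0.35 ± 0.10, limma adjusted p = 0.0234). Atp5k, a small membrane subunit of the ATP synthase, followed at 0.33 ± 0.11 and Ndufc2 of complex I at 0.30 ± 0.09 (limma adjusted p = 0.0495 and 0.0235). With the library kind as a term, 0 of the 30 calls were made. The effect of kind was estimated only from the washed-out WT group, the 1 group of this experiment with both kinds. Losing these calls therefore does not tell genotype from kind. With no group weights 3 were, and the share of all genes called in that fit is not given. With any 1 of the 4 libraries left out, fewer members and a smaller share of all genes were called. Fewer member calls can therefore not be told from fewer calls over all genes.

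The other genotype comparisons gave fewer calls among members not sensitive to counting. After 3 h of IL-4, 2 members were higher and 11 lower in KO-labelled than in WT cells, where 1.54% and 7.57% of 11240 genes were called higher and lower (9.11% in all). Ndufs3 was the only lower one not sensitive to counting, with 21.4 and 21.9 CPM in KO-labelled cells, against 33.1 and 31.0 CPM in WT (-0.54 ± 0.15, limma adjusted p = 0.0267). Ndufs3 shares 37% of its words with another gene and lies just under the ratio that defines sensitivity, at 1.45. With the library kind as a term no member was called there, under the limit of that term given above. The limit given above for Atp5g2 and Cox7c holds for the lower calls here and for the lower differences after restimulation. After washout, Ndufb7 and Ndufa1, accessory subunits of complex I, were higher in KO-labelled cells (0.45 ± 0.11 and 0.43 ± 0.11, limma adjusted p = 0.0335 and 0.0465), where 1.41% and 2% of 11342 genes were called higher and lower, 3.41% in all. Among other genes under 0.75 kb, 4.28% were called higher after washout and 4.43% after 3 h of IL-4. The WT washed-out group holds the 1 WT library of the low kind. Against that library, the mean of both KO-labelled libraries was higher for 66 of 81 members, with a median of 0.22 on the log2 scale. With kind as a term 17 members were higher and 0 lower, and the share of all genes called in that fit is not given. With no group weights or by limma-voom 0 were called, and the share of all genes is not given for these fits either. Without the deeper WT library 8 were higher and 0 lower, beside 3.06% and 4.32% of all genes, without the shallower 2 higher and 9 lower, beside 1.19% and 5.59%, and without either KO-labelled library 0 were called. After restimulation limma and limma-voom called 0, with 0 higher and 11 lower at an unadjusted p under 0.05, where 0% and 0.0168% of 11889 genes were called higher and lower, 0.0168% in all. Of these 11, all but Atp5f1 and Ndufs3 are sensitive to counting. Without the deeper restimulated WT library 1 member was higher and 73 lower, beside 28.0% and 25.8% of all genes, and without the shallower 14 were higher and 12 lower, beside 11.6% and 20.1%.

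Among related genes that the name rule leaves out, Ppargc1b, Esrra and Cyc1 rose with IL-4. Ppargc1b, a coactivator of mitochondrial gene expression, had 21.4 and 24.6 CPM with IL-4 at 24 h, against 1.88 and 1.71 CPM in vehicle (3.10 ± 0.41, limma adjusted p = 0.0021). It had 21.8 and 20.6 CPM with IL-4 and GW9662, against 1.59 and 2.67 CPM with GW9662 (2.85 ± 0.18, limma adjusted p = 1.04e-05). After 3 h it had 10.8 and 13 CPM in KO-labelled cells, against 2.46 and 2.45 CPM without IL-4, and 10.8 and 10.2 CPM in WT cells, against 1.98 and 2.10 CPM (1.90 ± 0.20 and 1.92 ± 0.19, limma adjusted p = 3.21e-07 and 3.8e-07). Esrra, which encodes an estrogen-related receptor, rose by 0.80 ± 0.19 at 24 h (limma adjusted p = 0.0274) and Cyc1, the cytochrome c1 of complex III, by 1.35 ± 0.17 (limma adjusted p = 0.0018). These genes belong to a list of 30 carriers and regulators, of which 6 of 28 tested were higher and 0 lower with IL-4 at 24 h, where 9.79% of all genes were called higher, and 14 higher and 2 lower with IL-4 and GW9662 against GW9662, where 26.3% were. At 3 h, 12 of 29 were higher and 2 lower in KO-labelled cells, beside 21.6% of all genes called higher, and 13 higher and 1 lower in WT cells, beside 24.7%. The list's medians in these 4 contrasts were 0.30, 0.37, 0.17 and 0.22. For IL-4 against vehicle at 24 h, its regulators Nrf1, Gabpa, Gabpb1, Tfam, Yy1 and Hif1a differed by -0.32, -0.20, -0.20, -0.12, -0.17 and -0.71. Pprc1, Tfb1m and Polrmt differed by 0.47, 0.45 and 0.31, and Tfb2m by -0.06. None of these regulators was called there by limma.

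Of 41 listed assembly factors, 34 were in the table and 32 were tested. The counts of this list and the next stand beside the same shares of all genes called higher, 9.79% for IL-4 at 24 h, 26.3% for IL-4 with GW9662 against GW9662, and 21.6% and 24.7% at 3 h in KO-labelled and WT cells. With IL-4 at 24 h, 1 was higher and 0 lower than in vehicle, with a median of 0.23, and with IL-4 and GW9662 against GW9662 14 were higher and 1 lower, with a median of 0.23. At 3 h, 11 were higher and 0 lower in KO-labelled cells and 17 higher and 0 lower in WT cells, with medians of 0.24 and 0.29. Of 24 mitochondrial markers outside the chain, such as citrate cycle enzymes and import proteins, 9 were higher and 1 lower with IL-4 at 24 h, and 17 higher and 1 lower with IL-4 and GW9662 against GW9662, with medians of 0.66 and 0.67. At 3 h, 13 were higher and 0 lower in KO-labelled cells and 17 higher and 0 lower in WT cells, with medians of 0.30 and 0.41. The gene that fell in both was Fh1, the fumarate hydratase of the citrate cycle, with 95.0 and 99.4 CPM with IL-4, against 181 and 169 CPM in vehicle (-0.84 ± 0.14, limma adjusted p = 0.00587). After 3 h of IL-4 Fh1 rose, with 202 and 192 CPM in WT cells, against 112 and 125 CPM without IL-4 (0.74 ± 0.07, limma adjusted p = 2.64e-07). Citrate synthase, Cs, rose by 0.84 ± 0.15 at 24 h and 0.39 ± 0.06 in WT cells at 3 h (limma adjusted p = 0.00716 and 8.49e-05). Fh1 was singled out after its values were seen.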

How the data were processed

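RNA-seq of 24 macrophage samples was analysed from 2 tables, 1 for the antagonist and 1 for the memory experiment, each with 1 column per group. The deposited unit is recorded as signal, since the authors deposited the mean of both samples of a group, as CPM values with no spread. TopHat2 2.0.7 and Cufflinks 2.0.2 are named, with mm10, by the submitters' processing notes. What each of them did, and how reads that fit several genes were counted, is not given in the sources used here.

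Each mean was separated into whole reads of 2 libraries from the size of 1 read in each. A single solution existed for 170864 (99.5%) of the 171808 nonzero values; 186 more took their plausible solution and 758 stayed unresolved. Libraries are not tied to replicate numbers. The separation and the test were tested on simulated data. limma 3.58.1 (R 4.3.3) was fitted with a trend to log2(CPM + 1) of all groups of a table, with 1 weight per group keeping genes that reached 1 CPM in the mean of 1 of the groups compared. A fold change on this scale understates the change of low genes. There were 16 comparisons of group pairs and 4 of responses, 20 in all. The labels do not say whether replicates are separate animals, so p-values measure the spread between these samples, which may be technical. Floors of 3 reads cover counting error only.

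Named are, per comparison, the 3 highest and 3 lowest called members, subunits with several forms, core subunits, the 5 members that differ most between library kinds and those nearest the level of 5 CPM; any other name was chosen after its values were seen. The members and lists were chosen with earlier results of these data known. Alternatives were another pseudocount, no filter, no group weights, library kind as a term, median-of-ratios scaling, limma-voom and leaving out each library. Library kind as a term without group weights, and members not sensitive to counting, were added after seeing the data. Sequences are from the GRCm38 annotation and RefSeq GRCm38.p6. Values of 1 member are not reported here, though counts include it.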

Additional observations from a re-analysis of the deposited data

How the results depend on the processing

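The numbers that follow count members called by limma at an adjusted p under 0.05. Here they stand without the share of all genes called in the same fit, also for leaving out a library. Fewer or more member calls can therefore not be told from fewer or more calls over all genes. With no group weights, 2 were called for 3 h of IL-4 in KO-labelled cells in place of 17, and 4 in WT cells in place of 31; restimulation in KO-labelled cells gave 1 in place of 5, second against first exposure there 1 in place of 9, washout 1 in KO-labelled and 0 in WT cells in place of 2 and 3, and WT restimulation 31 in place of 0. KO-labelled against WT cells then gave 3 without IL-4 in place of 30, 3 after 3 h in place of 13, 0 after washout in place of 2 and 12 after restimulation in place of 0. With library kind as a term, these genotype comparisons gave 0, 0, 17 and 0, and WT restimulation 2. In the memory experiment the effect of kind was estimated only from the washed-out WT group. With kind as a term and no weights, chosen after seeing the data, 0 were called for KO-labelled against WT cells without IL-4, after 3 h and after washout, 3 and 2 for 3 h of IL-4 in KO-labelled and WT cells, 1, 1 and 1 for KO-labelled washout, restimulation and second exposure, 0 for WT washout and 3 for WT restimulation. By limma-voom, KO-labelled and WT washout gave 1 each, the genotypes after washout 0, and WT restimulation 1; WT washout with no filter gave 1, and the genotypes after 3 h gave 3 among members not sensitive to counting.

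Leaving out 1 library at a time gave 28 to 58 for IL-4 against vehicle, 43 to 68 for IL-4 with GW9662 against GW9662, 0 to 0 for GW9662 against vehicle, 0 to 19 for IL-4 with GW9662 against IL-4, and 0 to 0 for the change of the IL-4 response by GW9662. For the memory experiment it gave 3 to 11 for 3 h of IL-4 in KO-labelled and 9 to 15 in WT cells, 0 to 1 and 0 to 16 for washout, 1 to 2 and 0 to 77 for restimulation, and 0 to 4 and 0 to 65 for second against first exposure, with KO-labelled cells first in each pair. KO-labelled against WT cells gave 2 to 8 without IL-4, 3 to 7 after 3 h, 0 to 11 after washout and 0 to 74 after restimulation. The differences between the genotypes' responses gave 0 to 0 at 3 h, 0 to 8 for washout and 0 to 67 for restimulation. A group left with 1 library is assumed to vary like the others.

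Of the values of single genes under an alternative, 922 kept their direction and side of the threshold, 200 fell short of it, 34 newly passed it, 15 others moved and 7 changed sign, the last all with library kind as a term and in members sensitive to counting. Atp5g2 became 0.67 and 0.51 for KO-labelled against WT cells without IL-4 and after 3 h, Cox7c 0.16 after 3 h, and Cox7a2l -0.27 for IL-4 with GW9662 against GW9662; the cause was not tested. The pseudocount of 0.5 and median-of-ratios scaling left every count of called members within 1.5 times its value. No paired analysis was possible because the averaged columns carry no replicate numbers.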
